A study of Mus musculus with 8 samples.

Results

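The glucose transporter Slc2a1 (GLUT1) and 9 enzymes of glycolysis were followed through osteoblast culture in WT and Def6-/- cells. The 10 genes, Slc2a1, Hk1, Hk2, Pfkp, Aldoa, Tpi1, Pgk1, Eno1, Pkm and Ldha, were taken by symbol from the 24421 genes in the files. The cells were primary calvarial osteoblastic cells from newborn C57BL/6 mice, 0 to 3 days old, expanded in ascorbic acid-free α-MEM with 10% FBS. Day 0 cells were taken before osteogenic medium was given, and day 12 cells after 12 days in it. This medium held 10% FBS, 10 mM β-glycerophosphate and ascorbic acid at 100 μg/mL. WT cells came from littermates of the Def6-/- mice, in which Def6 is missing from every cell type and which were backcrossed to the C57BL/6 background. Each of the 4 groups had 2 libraries of poly-A RNA, described by the study as biological replicates, and how many animals were pooled for a library is not given in the sources used here.

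Glycolysis breaks glucose down to pyruvate in the cytosol. GLUT1 carries glucose into the cell, hexokinases (Hk1, Hk2) phosphorylate it, phosphofructokinase (Pfkp, the platelet form) commits it to the pathway, and aldolase (Aldoa), triose phosphate isomerase (Tpi1), phosphoglycerate kinase (Pgk1), enolase (Eno1) and pyruvate kinase (Pkm) carry the carbon on to pyruvate, which lactate dehydrogenase A (Ldha) turns into lactate. Osteoblasts are known for high glucose uptake through GLUT1 and for making lactate even with oxygen present, and most of these genes are known targets of HIF1, the transcription factor of the response to low oxygen.

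Of the 10 genes, 9 had reads in every library and were tested. None passed an adjusted p under 0.05 in any comparison (limma on log2(normalized CPM + 1), Benjamini-Hochberg over 12348 genes), where 18.3% of all genes did between days in WT cells and 16.8% in Def6-/- cells. Normalized CPM are reads per 1000000 reads on genes after TMM scaling. At the looser rule used in the study, an unadjusted p under 0.05 with a change over 1.2-fold, Ldha, Pkm and Pfkp were lower and Hk1 was higher after culture of WT cells, and in Def6-/- cells Pfkp was lower and Tpi1 higher. No member met the looser rule between genotypes at either day.

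Between 2414856 and 3482837 reads per library lay on genes, 28.8% to 35.3% of all reads. Def6 had 112 to 186 reads in WT libraries and 0 to 2 in Def6-/- libraries, which matches the labels. WT day 0 replicate 1 stood apart: 34.9% of its reads had no unique position against 21.4% to 26.6% in the other libraries, and its root mean square log2 distance from its own replicate was 0.78, compared with 0.35 and 0.45 between WT day 0 replicate 2 and the Def6-/- day 0 libraries. The WT day changes of the members are given with and without it. Of 12 osteoblast markers, 7 rose with culture in WT cells and 8 in Def6-/- cells (limma, adjusted p under 0.05), among them Alpl, Ibsp, Phex and Dmp1. The summed level of 15 macrophage markers (a CD45 gene with values that are not whole reads was left out of the sum) was 199 to 428 normalized CPM at day 0 and 3221 to 6447 at day 12, with Lyz2, Mrc1 and C1qc in every library. Endothelial markers summed to 0.789 to 5.45 normalized CPM at day 0 and 10.9 to 13.1 at day 12, and 2 of the 6 were at 0 throughout. Tek, the 1 endothelial marker tested, went from 0 to 3.07 over the day 0 libraries to 5.86 to 9.39 at day 12. Its adjusted p was 0.0303 in WT and 0.0704 in Def6-/- cells (limma). The globin genes were at 0 throughout. Chondrocyte markers summed to 1913 to 3766 at day 0 and 1086 to 1528 at day 12. Most of that sum was Col2a1, at a mean of 2673 and 901 in WT cells, while Comp went from 22.5 to 359 and Col10a1 from 6.65 to 35.9. In such bulk RNA, fewer cells of a type and less RNA per cell cannot be told apart.

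Promoter sequence is shown for 4 members whose patterns between days differed from each other. Hk1 was the member whose libraries were all higher at day 12 in both genotypes and Pfkp the first enzyme of the pathway that was lower in both, whereas the days overlapped for Hk2 in both genotypes and for Pgk1 in WT cells only. Each sequence is the 250 bases before the RefSeq start nearest to that of the longest principal GENCODE transcript, 5′ to 3′ on the gene's strand (RefSeq, GRCm38.p6): Hk1 at chr10:62379909-62380158 (minus strand), Hk2 at chr6:82774455-82774704 (minus), Pfkp at chr13:6648772-6649021 (minus) and Pgk1 at chrX:106186850-106187099 (plus). Capitals mark the HIF core motif, ACGTG or GCGTG, or its reverse complement CACGT or CACGC, which overlaps the E-box letters CACGTG where these occur.
Hk1: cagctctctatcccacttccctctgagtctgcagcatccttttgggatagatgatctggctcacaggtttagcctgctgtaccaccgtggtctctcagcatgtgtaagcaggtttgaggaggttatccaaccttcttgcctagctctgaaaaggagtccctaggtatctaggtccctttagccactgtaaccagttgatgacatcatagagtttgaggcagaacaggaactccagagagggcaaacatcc
Hk2: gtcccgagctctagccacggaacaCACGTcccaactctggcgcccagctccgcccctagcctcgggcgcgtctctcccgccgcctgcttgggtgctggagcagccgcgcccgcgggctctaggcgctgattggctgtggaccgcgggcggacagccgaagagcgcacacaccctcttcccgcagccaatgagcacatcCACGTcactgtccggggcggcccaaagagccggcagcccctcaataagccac
Pfkp: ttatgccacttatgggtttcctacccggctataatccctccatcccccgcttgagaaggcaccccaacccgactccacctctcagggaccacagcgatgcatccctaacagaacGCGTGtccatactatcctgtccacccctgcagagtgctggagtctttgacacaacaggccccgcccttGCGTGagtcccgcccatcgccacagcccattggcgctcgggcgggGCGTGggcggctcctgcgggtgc
Pgk1: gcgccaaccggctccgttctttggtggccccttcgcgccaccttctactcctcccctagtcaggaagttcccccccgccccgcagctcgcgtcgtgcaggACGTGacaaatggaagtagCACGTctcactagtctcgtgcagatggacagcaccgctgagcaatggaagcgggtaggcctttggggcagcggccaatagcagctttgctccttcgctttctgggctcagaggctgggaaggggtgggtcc
The motif stood in the Hk2 window 2 times, in the Pfkp window 3 times and in the Pgk1 window 2 times, and not in the Hk1 window. Over all members, 7 of 10 such windows held it, against 38.6% of 32851 RefSeq windows of this length. Slc2a1, Aldoa, Eno1 and Ldha were the other members with a match, and Tpi1 and Pkm had none. Replicate 1 was above replicate 2 in all 4 groups for every measured member but Hk1, with or without a match. Whether the motif bears on the patterns of these genes was not tested. Only 1 window was read for each gene, although RefSeq lists 2 starts for Hk1, Pkm and Ldha and 3 for Aldoa and Eno1. The start used lay 244 bases from the GENCODE start for Eno1, 208 for Pkm and 138 for Tpi1, and at most 49 for the other members. Which start these cells used was not measured. A match describes letters only, and binding was not measured.

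Averaged over the libraries of both days, Ldha had the highest level per length of the longest transcript. The hexokinases, the transporter and Pfkp had the lowest. Ldha was lower at day 12 than at day 0 in both genotypes, so the order of the highest members need not hold on each day. Per kilobase of the longest annotated transcript (GENCODE M21), the mean over 8 libraries was 469.9 normalized CPM for Ldha (325 to 792), 415 for Aldoa (346 to 532) and 358 for Pkm (243 to 491), whose ranges overlap. Tpi1 was at 131 (98.1 to 164) and Pgk1 at 74.1 (58.7 to 106), which also overlap in range. Hk1 followed at 29.6 (21.4 to 34.8), and Slc2a1, at 19.7 (12.2 to 33.0), overlapped it. Hk2 was at 7.01 (4.86 to 9.91) and Pfkp at 6.37 (4.87 to 8.23), and with its longest coding transcript in place of its longest transcript Pfkp was at 13.3 and above Hk2. With median transcript lengths Pkm came before Ldha, and Hk1 and Slc2a1 before Pgk1. All 10 members together held 4159 and 2855 normalized CPM in WT day 0 replicates 1 and 2, and 2872 and 2315 at day 12. For Def6-/- cells the sums were 3269 and 2883 at day 0, and 3168 and 2452 at day 12. The days overlap in this sum in both genotypes, and WT day 0 replicate 1 was the highest and WT day 12 replicate 2 the lowest.

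**Figure D1:**
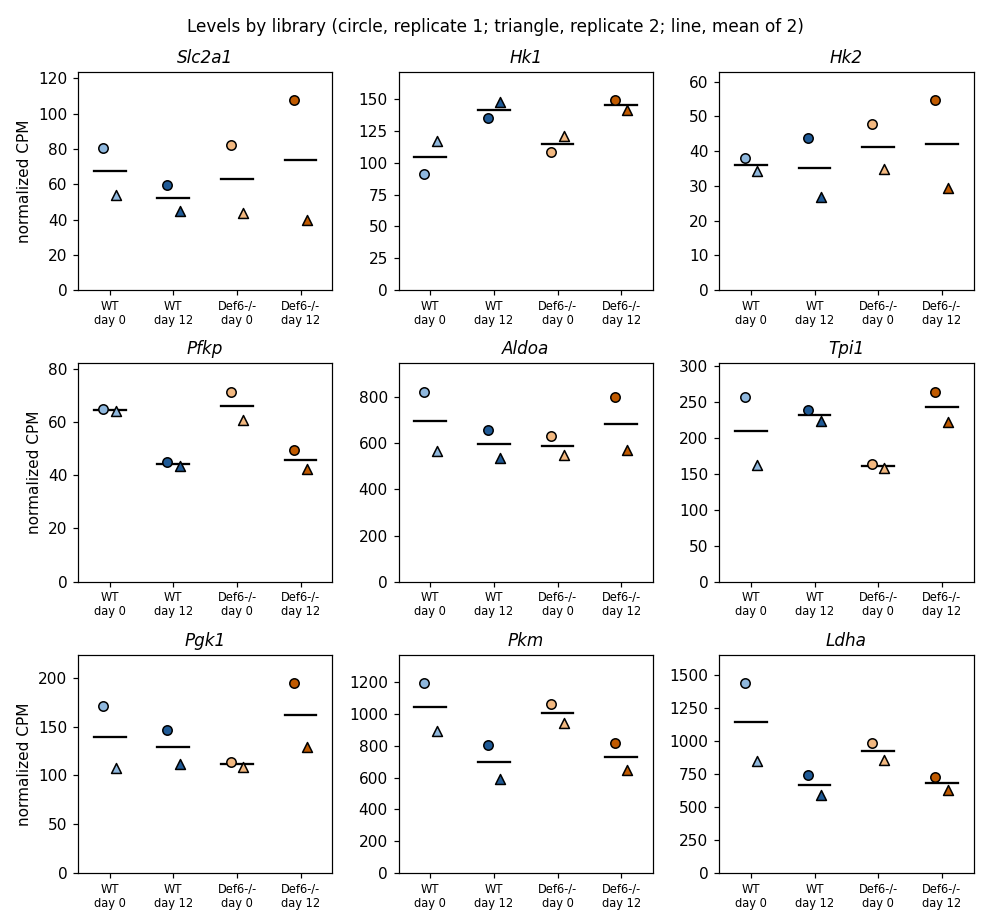
Normalized CPM (y axis, from 0) of the 9 measured members in the 4 groups (x axis), with a point for each library and a line at the mean of 2. Pfkp, Pkm and Ldha are lower at day 12 in both genotypes, Hk1 is higher, and Slc2a1 spreads from 39.7 to 107.6 within the Def6-/- day 12 group alone.

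Eno1, the main enolase outside muscle and nerve, was listed at 0 reads in all 8 libraries. A count of 0 allows up to 3 reads, or 0.861 to 1.24 CPM of the reads on genes, and this limit covers counting error only. Eno1 lies on chromosome 4 from 150236721 to 150248879 (GRCm38, plus strand, GENCODE M21). Of the 50-base words in its main transcript, 72.2% also occur in transcripts of 9 other genes, 8 of them pseudogenes, so reads from it could align to more than 1 place. Gapdh, the glycolytic enzyme often used as a reference gene, shared 82.5% of its words and had no more than 0.854 normalized CPM in any library. Genes that share 50% to 90% of their words were at 0 reads in 41.3% of 821 cases, compared with 21.2% of 10646 genes that share none. Pgk1 shared 68.0% with 5 pseudogenes and still had 267 to 509 reads. The share was 34.4% for Pkm, 17.1% for Pfkp, 16.6% for Ldha, 13.5% for Aldoa, 7.51% for Tpi1, 2.55% for Hk1, 1.74% for Slc2a1 and 0 for Hk2. With 100-base words it was 59.0% for Eno1, 67.0% for Pgk1, 9.82% for Pkm, 16.0% for Pfkp, 1.28% for Ldha, 0.796% for Tpi1 and 0 for Aldoa, and the read length is not given in the sources used here. The levels of Pgk1, Pkm and Pfkp are therefore uncertain at both word lengths, those of Pkm and Pfkp over a smaller share of their sequence. The part of shared sequence in the 0 of Eno1 was not tested. Eno1b, a near copy of Eno1, had 0.353 to 2.04 normalized CPM. Pkm shares 15.3% of its exon bases with the annotated gene Gm49759 on the same strand, and the strand setting of the counting is not given in the sources used here.

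The day comparison asks how expression changed from before to after 12 days of osteogenic culture. In WT cells the libraries of both days were apart for 4 of 9 members, 1 higher (Hk1) and 3 lower (Pfkp, Pkm, Ldha), where 29.3% of all genes tested were apart and higher and 26.6% apart and lower. In Def6-/- cells 3 were higher (Hk1, Tpi1, Pgk1) and 3 lower (Pfkp, Pkm, Ldha), with 35.2% and 32.4% over all genes. At adjusted p under 0.05, 0 of 9 members were called in WT cells, where 18.3% of genes were, and 0 of 9 in Def6-/- cells, where 16.8% were. The looser rule took 4 of 9 members in WT cells (32.5% of all genes) and 2 of 9 in Def6-/- cells (30.1%). Over the members the log2 change had a median of -0.21 in WT and 0.12 in Def6-/- cells, with medians over all genes of -0.00095 and 0.0098. Leaving out single libraries moved the WT median to nearly 0 or further below it, and never above 0. The Def6-/- median moved to either side of 0. With 9 genes, no share of the members is read as different from its background. Pfkp, Pkm and Ldha were lower and apart in both genotypes, which held for 19.6% of all genes, and Hk1 was higher and apart in both, as were 24.2%.

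Slc2a1, on chromosome 4 from 119108711 to 119137983, was at 80.5 and 54.1 normalized CPM in WT cells at day 0 and at 59.7 and 44.8 at day 12. Levels in Def6-/- cells were 82.4 and 43.9 at day 0, and 107.6 and 39.7 at day 12. The groups overlap in every comparison, and both the highest and the lowest value of all 8 libraries belong to Def6-/- cells at day 12. With culture, its log2 change was -0.35 in WT and 0.12 in Def6-/- cells (SE 0.46 each), with adjusted p = 0.648 and 0.900 (limma). The WT value was -0.06 without WT day 0 replicate 1.

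Hk1, the hexokinase found in most tissues, was at 91.6 and 117 normalized CPM in WT cells at day 0 and at 135 and 147 at day 12. In Def6-/- cells it was at 108 and 121 at day 0 and at 149 and 142 at day 12. Day 12 was above day 0 in all libraries of both genotypes, with no overlap. The log2 change of WT cells was 0.44 (SE 0.18, 95% confidence interval 0.03 to 0.86) and that of Def6-/- cells 0.34 (SE 0.18, -0.08 to 0.76), with adjusted p = 0.134 and 0.260 (limma). The WT change was 0.27 (adjusted p = 0.207) without WT day 0 replicate 1, and without replicate 2 it was 0.62 (adjusted p = 0.00463). Hk2, the inducible hexokinase, stood at 37.9 and 34.3 at day 0 and 43.6 and 26.8 at day 12 in WT cells, and 47.8 and 34.7 at day 0 and 54.6 and 29.5 at day 12 in Def6-/- cells. Its days overlap in both genotypes, with log2 changes of -0.07 and -0.02 (SE 0.34 each), and the WT value was -0.0019 without WT day 0 replicate 1.

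Pfkp, on chromosome 13 from 6579768 to 6648777, had the tightest WT replicates of the lower genes. It was at 65.1 and 64.3 normalized CPM at day 0 and 45.1 and 43.6 at day 12 in WT cells, and at 71.5 and 61.0 at day 0 and 49.7 and 42.3 at day 12 in Def6-/- cells. All 4 day 12 libraries lay below all 4 day 0 libraries. Culture of WT cells brought a log2 change of -0.54 (SE 0.19, 1.45-fold, adjusted p = 0.0852), against -0.52 in Def6-/- cells (SE 0.19, 1.43-fold, adjusted p = 0.102, limma). The WT value was -0.53 without WT day 0 replicate 1 (adjusted p = 0.0590) and -0.55 without replicate 2 (adjusted p = 0.0319). Aldoa, the aldolase of most tissues, stood at 824 and 569 at day 0 and 658 and 536 at day 12 in WT cells, and 632 and 549 at day 0 and 804 and 569.5 at day 12 in Def6-/- cells. The days overlap for Aldoa in both genotypes, and the log2 changes were -0.21 in WT and 0.20 in Def6-/- cells (SE 0.25 each). The WT value was 0.06 without WT day 0 replicate 1, so its sign rests on that library.

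Tpi1, on chromosome 6 from 124810586 to 124814296, gave 257 and 162 normalized CPM in WT cells at day 0 and 239 and 224 at day 12. Def6-/- cells gave 164 and 158 at day 0 and 264 and 222 at day 12. The Def6-/- days are apart, whereas WT day 0 replicate 1 lies above both WT day 12 libraries. The log2 change of WT cells was 0.18 and that of Def6-/- cells 0.59 (SE 0.23 each), with adjusted p = 0.619 and 0.121 (limma). Without WT day 0 replicate 1 the WT value was 0.51 with adjusted p = 0.0227, and without WT day 0 replicate 2 it was -0.15 with adjusted p = 0.426. The WT change of Tpi1 therefore depends on which of these libraries is kept.

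Pgk1, the enzyme of the first ATP-yielding step, was at 171 and 107 normalized CPM at day 0 and at 146 and 112 at day 12 in WT cells. Def6-/- cells gave 114 and 109 at day 0 and 194 and 129 at day 12. The Def6-/- days do not overlap, and the WT days do. Log2 changes of -0.08 for WT and 0.51 for Def6-/- cells (SE 0.28 each) had adjusted p = 0.870 and 0.268 (limma). The WT value was 0.25 without WT day 0 replicate 1 and -0.42 without replicate 2.

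Pkm, the pyruvate kinase of most tissues, lies on chromosome 9 from 59656368 to 59679375. Its level was 1193 and 894 normalized CPM at day 0 and 805 and 591 at day 12 in WT cells, and 1064 and 946 at day 0 and 816 and 648 at day 12 in Def6-/- cells. All 4 day 12 libraries were below all 4 day 0 libraries. The log2 change was -0.58 in WT (SE 0.23, adjusted p = 0.123, limma) and -0.46 (SE 0.23, adjusted p = 0.225) in Def6-/- cells. Without WT day 0 replicate 1 the WT change was -0.37 (adjusted p = 0.192), and without replicate 2 it was -0.79 (adjusted p = 0.00645).

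Ldha, on chromosome 7 from 46841475 to 46855627, had the largest WT difference between days among the members with all libraries. Without WT day 0 replicate 1, Ldha was below Pfkp and Tpi1 in size and close to Pkm. Its values were 1438 and 853 normalized CPM at day 0 and 739.7 and 589.6 at day 12 in WT cells, and 985 and 861 at day 0 and 728 and 629.7 at day 12 in Def6-/- cells. Again every day 12 library was below every day 0 library, and WT day 0 replicate 1 was far above the rest. The log2 change was -0.74 in WT (SE 0.26, 1.68-fold, adjusted p = 0.0840, limma) and -0.44 (SE 0.26, 1.36-fold, adjusted p = 0.303) in Def6-/- cells. Without WT day 0 replicate 1 the WT change was -0.37 (adjusted p = 0.137), so the size depends on that library, while without WT day 0 replicate 2 it was -1.12 (adjusted p = 2.79e-04).

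The spread that these tests use is shared by all 4 groups, and the WT day 0 replicates differed more than those of any other group. In Def6-/- cells, with WT day 0 replicate 1 left out, 5 of 9 members were called at adjusted p under 0.05, Pfkp, Pkm and Ldha lower and Hk1 and Tpi1 higher, at the same log2 changes as before. With WT day 0 replicate 2 left out these 5 and Pgk1 were called. With only the 4 Def6-/- libraries in the fit, 4 were called, Pfkp, Pkm, Ldha and Tpi1. Over all genes, the calls in Def6-/- cells rose at the same time, from 2076 of 12348 genes to 4302, 4330 and 3909.

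**Figure D2:**
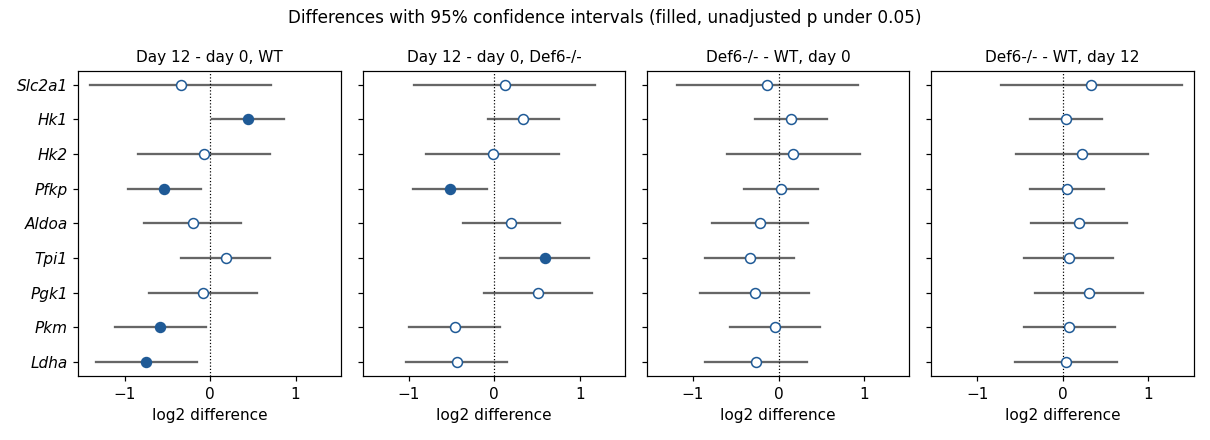
Log2 differences (x axis) with 95% confidence intervals for the 9 measured members (y axis) in the 4 comparisons, from limma on log2(normalized CPM + 1), with n = 2 libraries per group. Filled points have an unadjusted p under 0.05, which holds for 4 members in the WT day comparison, 2 in the Def6-/- day comparison and 0 between genotypes.

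Def6-/- cells were compared with WT cells on each day to ask whether loss of Def6 changed these genes. The libraries of both genotypes overlapped for all 9 members on both days. At day 0, 10.9% of all genes were apart and higher and 11.7% apart and lower in Def6-/- cells, and at day 12 these shares were 16.8% and 15.9%. No member was called at adjusted p under 0.05, with 0.00810% of genes called at each day, which is Def6 alone. At an unadjusted p under 0.05 and over 1.2-fold there were also 0 members on either day, where 2.30% and 1.40% of all genes were taken, and edgeR and DESeq2 on recovered reads called no member at adjusted p under 0.05 either.

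At day 0 the differences, Def6-/- minus WT, ran from -0.34 for Tpi1 to 0.17 for Hk2 on the log2 scale, with a median of -0.13 over the members and -0.02 over all genes. Tpi1 was at 164 and 158 in Def6-/- cells and at 257 and 162 in WT cells, so its lower mean came from WT day 0 replicate 1 alone. Its difference was -0.01 without that library, and -0.67 (adjusted p = 0.00631, limma) without WT day 0 replicate 2, a fit in which 2944 of 12348 genes (23.8%) were called. Ldha behaved alike, at -0.27 with all libraries, 0.11 without WT day 0 replicate 1 and -0.64 (adjusted p = 0.0175) without replicate 2.

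At day 12 all 9 differences were above 0, where 49.9% of those of all genes tested were. The 9 ran from 0.04 for Ldha to 0.33 for Slc2a1, with a median of 0.08. All 9 share the same 4 libraries. Without Def6-/- day 12 replicate 1 the median was -0.07, and without replicate 2 it was 0.24. The 95% confidence intervals were widest for Slc2a1, -0.72 to 1.39, and narrowest for Hk1, -0.38 to 0.46. In other lists the day 12 difference was above 0 for 12 of 12 osteoblast markers (median log2 difference 0.41) and 20 of 21 HIF response genes (median 0.31), with 0 genes called at adjusted p under 0.05. Adipocyte markers had a summed level of 14.7 to 18.1 normalized CPM in WT and 43.9 to 65.7 in Def6-/- cells. Of 4 tested, 0 were called at adjusted p under 0.05 (limma). All 4 met the looser rule, higher in Def6-/- cells, where 1.40% of all genes met it in either direction. All 4 were also apart and higher, as were 16.8% of all genes, with a median log2 difference of 1.69. Macrophage markers summed to 3221 to 6447 in WT and 3519 to 4017 in Def6-/- cells. Their difference was below 0 for 16 of 16 tested (median -0.32), with 0 called and the libraries of both genotypes overlapping for each. The part of these lists in the differences of the members was not tested. Member differences of the size seen could not be detected with these libraries, and the test does not show that the genotypes were alike.

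The interaction asks whether culture changed these genes differently in the 2 genotypes. The difference of changes, Def6-/- minus WT, was 0.59 for Pgk1 (SE 0.39), 0.46 for Slc2a1 (SE 0.66), 0.41 for Tpi1 (SE 0.32) and 0.40 for Aldoa (SE 0.35), with adjusted p = 0.9998 for each (limma). No gene was called, and 1.12% of all genes but 0 members had an unadjusted p under 0.05 with a difference over 1.2-fold. Without WT day 0 replicate 1 the Pgk1 value was 0.25 and the Tpi1 value 0.08. Without WT day 0 replicate 2, Tpi1 was at 0.74 with adjusted p = 0.0273, where 1282 of 12348 genes (10.4%) were called.

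The members differed between replicates in a common direction. For 8 of 9 members replicate 1 was above replicate 2 in all 4 groups, against 10.5% of all genes tested, and Hk1 was the exception, with replicate 1 higher in 1 group. The median log2 difference of replicate 1 and replicate 2 over the members was 0.53 in WT day 0, 0.33 in WT day 12, 0.19 in Def6-/- day 0 and 0.33 in Def6-/- day 12, where the medians over all genes were between 0 and 0.04. The widest gap was that of Slc2a1 in Def6-/- cells at day 12, 2.71-fold, and Hk2 had 1.85-fold and Pgk1 1.5-fold in the same pair. Pfkp had the narrowest gaps in the WT groups, 1.01-fold and 1.03-fold, and 1.17-fold and 1.18-fold in the Def6-/- groups, where other members were narrower.

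Many other genes of the HIF response were also higher in replicate 1 at day 12. Of 21 such genes outside the members, 20 were higher in replicate 1 of the Def6-/- day 12 pair, with a median log2 difference of 0.58, and 19 in the WT day 12 pair, with 0.29. At day 0 the counts were 12 in WT and 14 in Def6-/- cells. Over all genes tested, at most 52.2% were higher in replicate 1, so that the WT day 0 count, where the gap of the members was widest, was near the background. Car9, a carbonic anhydrase of the cell surface known as a HIF1 target, was at 83.8 and 13.2 normalized CPM in Def6-/- day 12 replicates 1 and 2 and at 27.3 and 10.9 in the WT pair. Hif1a itself was at 238 and 196 in the Def6-/- pair and at 198 and 199.8 in the WT pair. The part of these genes in the replicate gaps of the members was not tested.

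**Figure D3:**
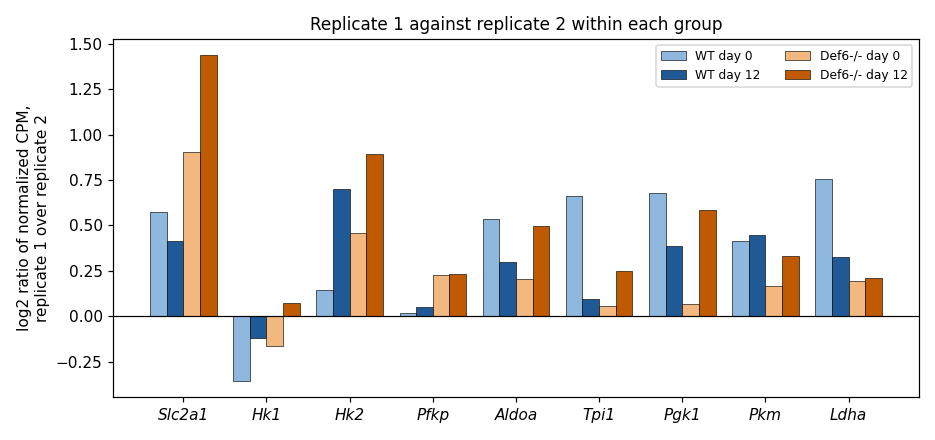
Log2 ratio of normalized CPM in replicate 1 over replicate 2 (y axis, bars from 0) for each of the 9 measured members (x axis) in the 4 groups. Bars stand above 0 in all groups except for Hk1, and the tallest is Slc2a1 in Def6-/- day 12, a ratio of 2.71.

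By the shape of their 8 log2 values, the genes nearest to the mean of the members were Inpp5a, Tkt, Slc35e4, Hpcal1 and Rnf19b, of 6073 genes with a mean of at least 10 CPM. Their root mean square difference from that mean was 0.07 to 0.10 over 8 libraries. Tkt encodes transketolase of the pentose phosphate pathway.

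Other genes of glycolysis, isoforms and partners of the members, reached larger changes than the members. Of 30 such genes 24 were tested, and 8 rose and 1 fell in WT cells and 8 rose and 2 fell in Def6-/- cells (adjusted p under 0.05, limma, where 12.7% and 12% of all genes rose and 5.63% and 4.79% fell). Hk3, a hexokinase known from myeloid cells, went from 4.74 and 4.24 normalized CPM at day 0 to 62.9 and 31.0 at day 12 in WT cells, and from 1.88 and 5.79 to 43.1 and 36.3 in Def6-/- cells. Log2 changes were 3.04 in WT and 3.20 in Def6-/- cells (SE 0.45 each). Its days are far apart in both genotypes, in the same direction as the macrophage markers given above, whose part in the change was not tested.

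Slc16a3, the lactate exporter MCT4, rose by 2.13 in WT (log2 scale) and by 2.18 in Def6-/- cells (SE 0.38 each, adjusted p = 0.0056 and 0.00515, limma), from 12.4 to 24.8 normalized CPM over the day 0 libraries to 59.9 to 99.3 over the day 12 libraries. Aldoc, the brain form of aldolase, rose by 2.28 and 2.68 but reached no more than 13.6 normalized CPM, and Pgam2, the muscle phosphoglycerate mutase, rose by 1.92 and 2.41 to at most 15.1. Adpgk, which phosphorylates glucose with ADP, fell by 0.61 and 0.65. The macrophage markers rose over the same days, and their part in the changes of these genes was not tested either.

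**Figure D4:**
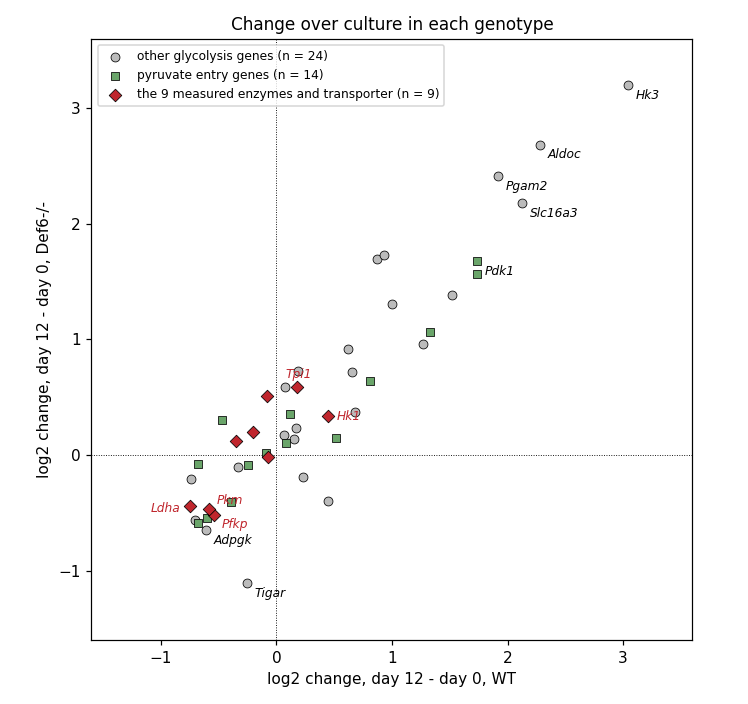
Log2 change from day 0 to day 12 in WT cells (x axis) and in Def6-/- cells (y axis), from limma, for the 9 measured members (red diamonds), 24 other glycolysis genes (grey circles) and 14 genes of pyruvate entry into mitochondria (green squares). The members lie between -0.74 and 0.59 on both axes, while Hk3, Aldoc, Pgam2 and Slc16a3 lie at 1.92 or above.

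Among 14 genes that control the entry of pyruvate into mitochondria, 3 rose and 1 fell in each genotype, where 12.7% and 12% of all genes rose and 5.63% and 4.79% fell. Pdk1, a kinase that switches off pyruvate dehydrogenase, rose from 14.5 to 22.9 normalized CPM over the day 0 libraries to 50.3 to 82.9 over the day 12 libraries, by 1.74 in WT cells and 1.67 in Def6-/- cells (SE 0.30 each, adjusted p = 0.00472 and 0.00553, limma). Pdk2, of the same family, rose by 1.33 and 1.06, and Pdp1, the phosphatase that switches the complex back on, rose by 1.73 and 1.56. Dlat, a subunit of the complex itself, fell by 0.68 and 0.59.

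Between genotypes no gene of either of these lists was called at adjusted p under 0.05 at day 0 or day 12.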

How the data were processed

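The 8 libraries held poly-A RNA of calvarial osteoblastic cells, 2 per group. The authors trimmed reads with fastp (per the labels), aligned them to mm10 with HISAT2, counted genes with HTSeq and deposited CPM made with edgeR, relative to all reads including those outside genes. Versions, annotation, read length and strand setting are not given in the sources used here. Of the positive CPM values, 99.957% are whole multiples of 1 read (within 0.01), so reads were recovered. None of the 49 exceptions belongs to a member. Rows that name no gene, such as reads without a unique position, made up 64.7% to 71.2% of reads and were left out.

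CPM were rescaled to reads on genes with TMM factors, and log2(CPM + 1) was tested with limma 3.58.1 (trend) in a single fit of 4 group means, over the 12348 genes whose mean CPM reached 1 in any group. Fold changes on this scale understate low genes. With 2 libraries per group, p-values set each difference against the spread between replicate libraries. That spread was shared by all 4 groups and drawn towards its trend with level over all genes tested. The fit was also run on simulated data with the same spread in every group. The real WT day 0 replicates differed more than those of other groups, so the simulation does not test the fit under that inequality. edgeR 4.0.16 and DESeq2 1.42.0 on recovered reads, other scalings, a pseudocount of 0.1, no filter and leaving out each library were alternatives. All 10 members are named, with at most 4 genes of another list, called genes first by size of WT change. Gapdh and Hif1a, named beside a member for comparison, and Adpgk, a further gene of its list, fall outside this rule. They were chosen after their values were seen. The members and lists were chosen with earlier results of these data known. Words shared between transcripts and lengths come from GENCODE M21, and promoters from RefSeq (GRCm38.p6), where all 10 members matched.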

Additional observations from a re-analysis of the deposited data

How the results depend on the processing

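In 16 alternatives, 711 changes of single members were recomputed; 661 kept their sign and 50 did not. None of these 50 was called, and with all libraries none was over 0.46 in size on the log2 scale. With all libraries, limma without a block called 0 members in each comparison. DESeq2 called 1 member (Ldha) in the WT day comparison, and the fit of only the groups compared called 4 in the Def6-/- day comparison. Without any 1 library, 0 to 4 members were called in the WT day comparison, 0 to 6 in the Def6-/- one, 0 to 2 between genotypes at day 0, 0 at day 12 and 0 to 1 for the interaction. All counts above 0 came without a WT day 0 library, whose pair then no longer enters the shared spread, and without WT day 0 replicate 2 the share of all genes called was 46.1% and 35.1% between days in WT and Def6-/- cells, 23.8% between genotypes at day 0 and 10.4% for the interaction. By the looser rule the members numbered 4 in WT and 2 in Def6-/- cells between days. They were 1 and 1 with CPM as deposited, 2 and 1 by DESeq2, and 0 and 6 with only the groups compared, where the rule took 28.7% and 26.8%, 27.3% and 23.6%, and 23.3% and 42.3% of all genes. Leaving out a library gave 0 to 5 in WT cells, 0 to 6 in Def6-/- cells, 0 to 5 between genotypes at day 0, 0 to 1 at day 12 and 0 to 4 for the interaction. The median log2 change of the members then ranged from -0.47 to -0.0019 in WT cells, -0.46 to 0.41 in Def6-/- cells, -0.41 to 0.055 between genotypes at day 0, -0.07 to 0.30 at day 12 and -0.047 to 0.67 for the interaction. Where a group kept 1 library, that library was assumed to vary like the others.

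With a replicate block, 2 members (Ldha, Pkm) were called in the WT day comparison, and 4 met the looser rule in Def6-/- cells. Same-numbered libraries correlated at 0.00 to 0.33 in their replicate differences. The labels do not say whether the numbers mark a shared litter or day, so whether the libraries are paired is not known. A factor shared by same-numbered libraries was not tested. Over all genes, the calls between days ranged from 886 to 5692 in WT cells and from 927 to 4330 in Def6-/- cells over all alternatives, against 2260 and 2076. The causes were not tested. With 2 libraries per group, changes of the size seen in the members lay near or under what the fit could call.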

Other observations

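Several genes of glycogen metabolism rose with culture. Ppp1r3c, which targets protein phosphatase 1 to glycogen, went from 0.752 to 1.41 normalized CPM over the day 0 libraries to 18.8 to 30.8 over the day 12 libraries, a log2 change of 3.39 in WT cells and 3.62 in Def6-/- cells (SE 0.34 each, adjusted p = 3.37e-04 and 2.45e-04, limma). Pygl, the liver form of glycogen phosphorylase, rose by 2.23 and 3.02, and Pygm, the muscle form, rose by 2.49 and 2.77. Gbe1, the branching enzyme, rose by 1.0 in Def6-/- cells, and its WT change of 0.80 had an adjusted p of 0.0770. Of 13 glycogen and hexose genes, 4 rose and 1 fell in WT cells, and 4 rose and 0 fell in Def6-/- cells. As with Hk3, the part of the macrophage markers in the rises was not tested.

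Of 18 genes of the citric acid cycle, 1 rose and 3 fell in WT cells, and 1 rose and 0 fell in Def6-/- cells. Over all genes tested, 12.7% rose and 5.63% fell in WT cells, and 12% and 4.79% in Def6-/- cells, which is the background for each list here. Idh2, the mitochondrial NADP-linked isocitrate dehydrogenase, rose by 0.93 and 0.97. Idh3a, a subunit of the NAD-linked form, fell by 1.09 in WT cells (adjusted p = 0.0187, limma) and had a change of -0.78 in Def6-/- cells (adjusted p = 0.0696). Mdh2 and Cs fell by 0.83 and 0.56 in WT cells and had -0.63 and -0.48 in Def6-/- cells. In the pentose phosphate list of 10 genes, Rpe fell by 0.83 and Prps2 rose by 0.81 in WT cells, and 0 genes were called in Def6-/- cells. Pck2, the mitochondrial form of the gluconeogenic PEPCK, fell by 1.80 in WT cells, from 319 and 224 to 78.1 and 73.7 normalized CPM, and stood at 273 and 234 and then at 173 and 60.2 in Def6-/- cells. None of these genes was called in the interaction, so a difference between genotypes was not shown.

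Of 21 HIF response genes, 3 rose and 1 fell in WT cells and 6 rose in Def6-/- cells. Ndrg1 rose by 1.71 and 1.87 (SE 0.19 each), and Adm, which encodes adrenomedullin, fell by 1.39 in WT cells. Epas1, which encodes HIF2α, rose by 3.22 and 2.86 (SE 0.30 each), from 5.92 to 12.4 normalized CPM over the day 0 libraries to 70.4 to 90.1 over the day 12 libraries, while the log2 difference of Hif1a was -0.02 and 0.03 (SE 0.18 each). Ppargc1a, a coactivator of mitochondrial genes, rose by 1.61 and 1.63 but had at most 4.11 normalized CPM. Of 12 cell cycle genes, 3 fell in WT cells and 4 in Def6-/- cells, where 5.63% and 4.79% of all genes fell.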
